A study of Mus musculus with 12 samples.

Results

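Iron handling was examined through 10 of the 31053 genes listed in the count matrices, chosen by name: Trf, Tfrc, Cp, Heph, Fth1, Ftl1, Slc40a1, Slc11a1, Slc11a2 and Ncoa4. Trf was picked because its level shifted in eWAT preadipocytes in these same data, so its values there are a description. The members and the other iron genes compared below were chosen with earlier results of these data known. Their called counts beside the share of all genes are thus no unbiased test of an excess. The cells were the stromal vascular fraction (SVF), the non-adipocyte cells of fat, of male mice aged 12 weeks. They came from epididymal (eWAT) and inguinal (iWAT) white adipose tissue, profiled by droplet single-cell RNA sequencing that counts 3' transcript ends. Each depot had 3 groups of 2 libraries, 1 library per mouse and depot, and nothing in the labels pairs the mice across groups. WT-Veh were C57BL/6J mice given methylcellulose vehicle, ob/ob-Veh were Lepob/Lepob mice given the same vehicle, and ob/ob-Rosi were Lepob/Lepob mice given rosiglitazone, an agonist of the fat cell regulator PPARγ, at 30 mg/kg by gavage each morning and evening for 3 days. The Lep mutation was present in all cells of the ob/ob mice, every group was handled by gavage, and rosiglitazone in WT mice was not analysed here. The SVF came from collagenase-digested tissue pieces after removal of fat cells and lysis of erythrocytes.

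Iron travels in blood bound to transferrin, the product of Trf, and cells take it up through the transferrin receptor, the product of Tfrc. Slc11a2 carries iron across the endosomal membrane, and Slc11a1 does so in the phagosomes of macrophages. Ferritin, a shell of heavy (Fth1) and light (Ftl1) chains, stores the iron, and Ncoa4 delivers ferritin to lysosomes for its release. Ferroportin, encoded by Slc40a1, is the known exporter of iron from cells, and the copper-containing oxidases ceruloplasmin (Cp) and hephaestin (Heph) oxidise iron as it leaves. Macrophages that clear old red cells recycle much of the body's iron through this route. When iron is scarce, iron regulatory proteins bind a stem-loop called the iron-responsive element, which protects Tfrc RNA from decay and blocks translation of ferritin and ferroportin RNA. A part of this control acts on translation, which counts of RNA do not measure.

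The iron-responsive element is shown because it is the sequence that ties the uptake, storage and export members together. A search of the 5' and 3' UTRs of the 10 members, on the strand of the transcript, for a C, 5 bases and the loop letters CAGTGN with a stem of 5 pairs between the 5 bases and the bases after the loop, G with T allowed as a pair, found 7 matches in 4 members. Genes with such a match in a UTR were 0.731% of the 21901 genes with a coding transcript (160 genes). The matches follow from 5' to 3' with the 6 loop bases in capitals, in GRCm38 with the GENCODE M21 annotation.
Tfrc, 3' UTR, chr16:32631220-32631246, plus strand: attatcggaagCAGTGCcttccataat
Tfrc, 3' UTR, chr16:32631599-32631625, plus strand: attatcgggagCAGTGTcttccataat
Tfrc, 3' UTR, chr16:32631664-32631690, plus strand: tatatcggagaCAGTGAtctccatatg
Tfrc, 3' UTR, chr16:32631711-32631737, plus strand: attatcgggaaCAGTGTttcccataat
Fth1, 5' UTR, chr19:9982733-9982759, plus strand: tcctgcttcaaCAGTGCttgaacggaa
Ftl1, 5' UTR, chr7:45459780-45459806, minus strand: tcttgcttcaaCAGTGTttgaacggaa
Slc40a1, 5' UTR, chr1:45925466-45925492, minus strand: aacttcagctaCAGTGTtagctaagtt
The Tfrc matches lie in the 3' UTR and those of Fth1, Ftl1 and Slc40a1 in the 5' UTR. The other 6 members held no match under this rule, which misses elements with a bulge or mismatch within the 5 pairs. In the same build Trf lies on chr9:103204001-103230444, Cp on chr3:19957054-20009145, Heph on chrX:96455359-96574485, Slc11a1 on chr1:74375195-74386062, Slc11a2 on chr15:100387898-100425072 and Ncoa4 on chr14:32159865-32179855.

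The 12 libraries held between 20132553 and 92475986 UMIs (counted molecules), and 57613 eWAT and 68482 iWAT cells were kept. Lep, the gene mutated in ob/ob mice, gave 28.0 and 42.5 UMIs per 100 Adipoq UMIs under the WT-Veh label, 3.95 and 16.2 under ob/ob-Veh and 240 and 390 under ob/ob-Rosi in eWAT, from 7 to 277 Lep UMIs a library. In iWAT it gave 20.1 and 31.6, then 36.4 and 15.1, then 164 and 141, from 4 to 197 Lep UMIs. It was thus highest in the libraries labelled ob/ob-Rosi in both depots, while WT-Veh and ob/ob-Veh overlapped in iWAT and did not in eWAT. The mutated transcript is still counted, so Lep does not test the genotype, and groups are called by their labels, on which each direction below depends. The iWAT library labelled WT-Veh replicate 1 stood apart, with a median of 1132 UMIs per cell and 130 progenitor-like cells against 910 to 3362 in the other iWAT libraries. Of its 17063 kept cells 7873 lay in no named class, against 2 to 58 cells in the others, and 1906 were BC-like, against 20 to 117. Pairs of libraries shared 7 to 99 cell barcodes among kept cells, at most 1.05% of the smaller library, led by eWAT ob/ob-Rosi replicate 1 with iWAT WT-Veh replicate 1 (99) and iWAT ob/ob-Rosi replicate 1 with eWAT ob/ob-Veh replicate 1 (94). In all, 4165 of 126095 kept cells had a barcode found in another library. Libraries draw from 1 pool of 10x barcodes, so some sharing arises by chance, and its expected level was not worked out. A shared barcode thus does not mark a cell as foreign to its library. Without them the Trf values of preadipocyte-like cells were 119 to 151 CPM under WT-Veh, 851 and 1229 under ob/ob-Veh and 59.4 and 113 under ob/ob-Rosi in eWAT, and calls that their removal ended are given beside the result. This removal was chosen after seeing the data. Cells were classed by clusters and named from marker lists, with the 10 members kept out of the clustering. Classes were adipose progenitor cells (APC) split into progenitor-like and preadipocyte-like, perivascular (PVM-like), lipid-associated (LAM-like) and non-perivascular (NPVM-like) macrophages, macrophage-like cells of no subset, dendritic (DC-like), natural killer and T (NKT-like), B (BC-like), endothelial (EC-like), lymphatic endothelial (LEC-like), mesothelial-like, neutrophil-like and proliferating cells. Cluster 16 of eWAT is given by its number, since its leading genes were both mural (Myh11, Acta2, Tagln, Rgs5) and adipocyte ones (Car3, Cfd, Cidec, Adipoq, Retn). A level is given in CPM, the UMIs of a gene per 1000000 UMIs of all cells of that class in 1 library, for libraries with at least 20 cells of the class. Libraries within a depot group were 2, so an exact permutation test could not go below p = 0.33, and tests rest on edgeR's quasi-likelihood model of summed counts with Benjamini-Hochberg adjustment over all genes of a class. A change is called when it is at least 1.1-fold with an adjusted p no higher than 0.05.

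By its median Trf RNA was highest in PVM-like cells in both depots (plot of Trf by class). In eWAT PVM-like cells its level was 876 and 751 CPM under the WT-Veh label, 1183 and 1170 under ob/ob-Veh, and 643 and 712.5 under ob/ob-Rosi. In iWAT PVM-like cells it ran from 737 to 1125 CPM with a median of 872, above every library of LAM-like cells, the next class, at 337 to 536. In eWAT the range of PVM-like cells overlapped that of macrophage-like cells (506 to 807 CPM) and that of preadipocyte-like cells (60.5 to 1226 CPM), where both ob/ob-Veh libraries reached the PVM-like level. Mesothelial-like cells, at 252 to 639 CPM, lay just below it. Tfrc, the receptor for transferrin, also had its highest median in PVM-like cells, 141.5 CPM in eWAT and 188 in iWAT. Its values there were widely spread: 150 and 130 under WT-Veh, 153 and 319 under ob/ob-Veh and 133 and 48.4 under ob/ob-Rosi in eWAT. In iWAT the WT-Veh libraries had 380 and 238, those of ob/ob-Veh 83.7 and 229, and those of ob/ob-Rosi 146 and 132.5. In eWAT both ob/ob-Veh libraries lay above the other 4, by little in 1 of them, and WT-Veh and ob/ob-Rosi overlapped. In iWAT both WT-Veh libraries lay above the other 4 (log2 −1.22 for ob/ob-Veh, adjusted p = 0.116, not called by edgeR). The next classes, NKT-like in eWAT and BC-like in iWAT, overlapped with PVM-like cells.

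**Figure D1:**
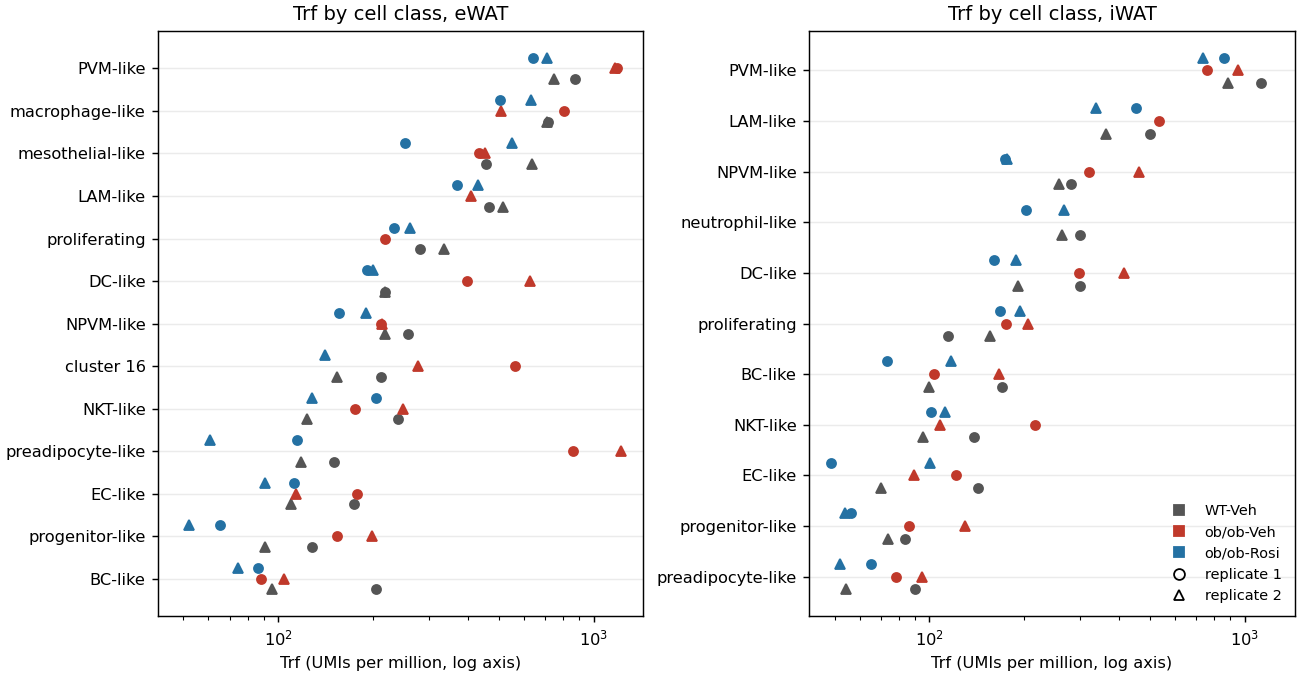
Trf level in CPM (log axis) in each library, by cell class and depot, for classes with at least 4 libraries. Colour gives the label and marker shape the replicate. PVM-like cells sit highest by their median in both depots, and the 2 eWAT libraries labelled ob/ob-Veh stand apart at 858 and 1226 CPM in preadipocyte-like cells.

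Among the carriers of iron across endosome and phagosome membranes, Slc11a1 was highest in LAM-like cells, with a median of 277 CPM in eWAT (270 to 348) and 220.5 in iWAT (185 to 398). The eWAT range lay above that of the next class, macrophage-like cells, at 186.5 to 245 CPM. In iWAT it overlapped that of neutrophil-like cells (113 to 301 CPM), which came first when every cell was thinned to the same number of UMIs. Slc11a2 was low everywhere and had no class of its own, with medians of 28.0 CPM in eWAT PVM-like and 27.7 in iWAT LAM-like cells and overlapping ranges below them. The storage genes Fth1 and Ftl1 also had their highest medians in LAM-like cells. Fth1 ran from 13080 to 22260 CPM in eWAT and from 6583 to 19960 in iWAT LAM-like cells. Ftl1 ran from 13750 to 24540 and from 7519 to 21670 CPM. Each of these ranges overlapped the next class. Ferritin genes have near-identical processed copies, and the annotated copy Ftl1-ps1 held 0.965 to 3.55% as many UMIs as Ftl1, so reads may have been split between them. This share was highest under ob/ob-Veh, at 1.74 and 1.54% in eWAT and 3.55 and 2.19% in iWAT. The other libraries had 0.973 to 1.02% in eWAT and 0.965 to 1.42% in iWAT. Its part in the Ftl1 differences given below was not tested.

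Ncoa4, which sends ferritin to lysosomes, was highest in mesothelial-like cells, the lining of the epididymal fat, which formed a class in eWAT. Its level there was 395 and 423 CPM under the WT-Veh label, 649 and 608 under ob/ob-Veh, and 476 and 638 under ob/ob-Rosi. All 6 lay above every library of the next class, PVM-like cells, at 103 to 180 CPM. In iWAT the highest class was PVM-like, at 79.0 to 122 CPM with a median of 104. The exporter Slc40a1 was highest in PVM-like cells in eWAT, with a median of 56.8 CPM (28.7 to 151), a range that overlapped that of macrophage-like cells (10.5 to 130 CPM). In iWAT it was highest in neutrophil-like cells, at 185 and 125 CPM under WT-Veh and 293 and 95.1 under ob/ob-Rosi, above the PVM-like range of 17.5 to 39.9. Those neutrophil-like values rest on 31 to 67 cells per library, and the libraries labelled ob/ob-Veh held 6 such cells each and gave no value.

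The 2 oxidases were led by other classes. Cp was highest in preadipocyte-like cells among classes with at least 4 libraries, with medians of 272 CPM in eWAT (164 to 853) and 232 in iWAT (191 to 324). In iWAT the PVM-like range of 67.4 to 470 overlapped it, and under ob/ob-Veh the PVM-like values (470 and 368) lay above the preadipocyte-like ones (324 and 218.5). The eWAT LEC-like class, which reached 20 cells in 3 libraries, stood higher, at 684, 1245 and 1476 CPM. Heph was low throughout, with its highest medians at 19.0 CPM in eWAT preadipocyte-like cells (15.5 to 28.9) and 17.4 in iWAT EC-like cells (13.7 to 22.3). Of the 20 leading classes, 19 were the same when cells were thinned, the exception being Slc11a1 in iWAT. Since classes are clusters of these cells, these orders are a description without a test.

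The shift for which Trf was chosen was large. In eWAT preadipocyte-like cells Trf was 150.5 and 118 CPM under the WT-Veh label, 858 and 1226 under ob/ob-Veh, and 114 and 60.5 under ob/ob-Rosi. Both ob/ob-Veh libraries lay above the other 4. The fitted log2 differences were 2.84 (SE 0.348) for ob/ob-Veh against WT-Veh, −3.47 (SE 0.358) for treated against untreated ob/ob mice and −0.64 (SE 0.329) for ob/ob-Rosi against WT-Veh, and the first 2 share the ob/ob-Veh libraries. The SEs take no account of the choice of Trf. No test between groups within eWAT is given for any member in this class, since the choice of Trf used this contrast. For scale, 8.36% of all genes were called between ob/ob-Veh and WT-Veh there and 8.62% between ob/ob-Rosi and ob/ob-Veh.

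As another description of the same counts, the share of cells with Trf RNA was highest under ob/ob-Veh. A Trf UMI was found in 16.6 and 31.1% of preadipocyte-like cells under WT-Veh, 56.6 and 62.8% under ob/ob-Veh, and 18.4 and 21.6% under ob/ob-Rosi. Median depth differed between these libraries, at 1294 and 3732, 4752 and 4245, and 2254 and 4691.5 UMIs per cell. With every cell thinned to the same depth the shares were 9.44 and 7.99, 30.0 and 35.5, and 6.74 and 4.16%. In BC-like cells, which are not known to make transferrin, the thinned shares were 10.4 and 5.32, 5.05 and 14.3, and 9.68 and 7.84%, with 1266 to 3257 UMIs per cell. These rest on 31 to 163 cells a library, and the highest, of ob/ob-Veh replicate 2, on 56 cells (95% interval 7.42 to 25.7%). The 4 thinned WT-Veh and ob/ob-Rosi shares of preadipocyte-like cells thus lay at or below the highest BC-like share, and the 2 ob/ob-Veh shares lay above every BC-like one. Trf in BC-like cells was 204 and 95.5 CPM, 88.0 and 104, and 86.3 and 74.7, with the ob/ob-Veh values inside the range of the others. Whether free RNA had a part in the Trf shift was not tested. The preadipocyte-like class gave 31.6 and 41.2% of all Trf UMIs of the 2 libraries labelled ob/ob-Veh and 3.28 to 6.35% in the other 4.

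Within the preadipocyte-like class the groups were held by different clusters (plot of Trf by APC-like cluster). Nearly all cells of the ob/ob-Veh label lay in clusters 7 (1144 and 1169 cells) and 8 (585 and 756 cells). Trf was 887 and 1321 CPM in the first and 712.5 and 840 in the second. The cells labelled WT-Veh or ob/ob-Rosi lay in clusters 0, 1, 4 and 9, where Trf ran from 45.4 to 205 CPM over libraries. Both ob/ob-Veh clusters thus stood above every other preadipocyte-like cluster. Preadipocyte markers were lower in these 2 clusters than in the other APC-like cells (mean log2 −0.125 with 10 of 14 detected in cluster 7 and −0.383 with 9 of 14 in cluster 8), so their name rests on weaker marker levels. The progenitor-like clusters of the same ob/ob-Veh libraries were lower, at 90.7 and 126 CPM in cluster 10 and 183 and 269 in cluster 11. In iWAT preadipocyte-like cells Trf was 89.8 and 54.5 CPM under WT-Veh, 78.3 and 94.7 under ob/ob-Veh, and 65.1 and 51.9 under ob/ob-Rosi. These iWAT values overlapped for WT-Veh and ob/ob-Veh and passed no test (log2 0.29, adjusted p = 0.65, and −0.55, adjusted p = 0.331, edgeR). The iWAT groups were also held by different clusters. Most ob/ob-Veh cells lay in iWAT cluster 7, most ob/ob-Rosi cells in 0 and 5, and those of WT-Veh in 0, 5, 6 and 10. A value singled out after it was seen was that of 24 preadipocyte-like cells of iWAT ob/ob-Rosi replicate 1 in iWAT cluster 7, at 944 CPM from 106 Trf UMIs. The 394 and 885 ob/ob-Veh cells of that cluster were at 69.0 and 98.1 CPM. Of the 24 cells, 4 had a barcode also found in eWAT ob/ob-Veh replicate 1, each in a preadipocyte-like cell there, and they held 5 of the Trf UMIs. The 19 with no barcode of another library stood at 1072 CPM. In the same library 44 progenitor-like cells of iWAT cluster 3, also singled out after being seen, had Trf at 231, Cp at 438 and Heph at 19.55 CPM, beside Cp at 44.7 and 39.9 and Heph at 3.04 and 3.29 in the 1050 and 759 ob/ob-Veh cells of that cluster. The source of these cells was not tested.

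**Figure D2:**
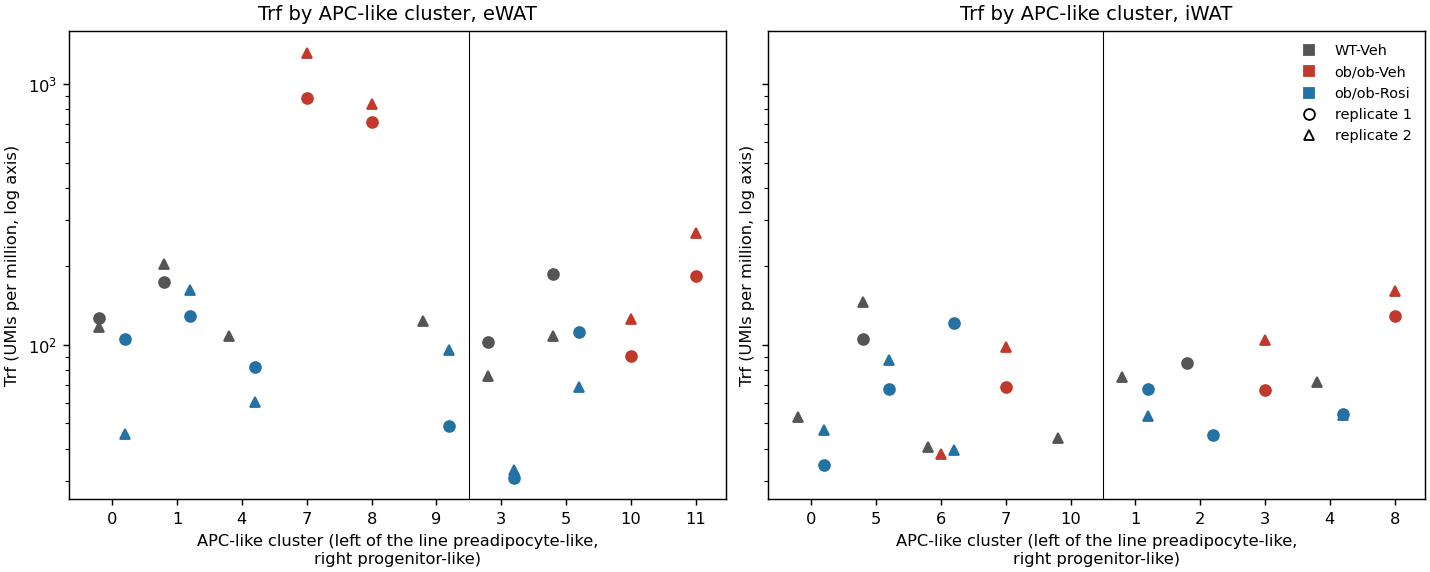
Trf level in CPM by APC-like cluster and library, for clusters with at least 50 cells of a library, with preadipocyte-like clusters left of the line and progenitor-like clusters right of it. Colour gives the label. eWAT clusters 7 and 8, which hold the preadipocyte-like cells labelled ob/ob-Veh, sit between 712.5 and 1321 CPM.

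Other members differed in the same eWAT preadipocyte-like cells and are given as values. Cp, the plasma ferroxidase, was 250 and 222.5 CPM under WT-Veh, 853 and 851 under ob/ob-Veh, and 293 and 164 under ob/ob-Rosi. Slc11a1 was 22.8 and 15.2, then 6.59 and 4.42, then 13.7 and 18.9 CPM. Ftl1 was 3860 and 3770, then 1837 and 1999, then 3076 and 4166 CPM. For these 3 genes both ob/ob-Veh libraries lay outside the range of the other 4, above it for Cp and below it for Slc11a1 and Ftl1. Ncoa4 was 36.9 and 32.0, 57.4 and 51.4, and 44.5 and 30.1 CPM, again highest under ob/ob-Veh. Fth1 (6227 to 10450 CPM), Slc40a1 (3.27 to 9.84), Heph (15.5 to 28.9), Slc11a2 (16.8 to 20.95) and Tfrc (2.48 to 7.33) are given as ranges over the 6 libraries.

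RNA of other cell types moved with the label in this class. The summed level of 8 macrophage genes was 2792 and 2073 CPM under WT-Veh, 456 and 904 under ob/ob-Veh, and 2384 and 2141 under ob/ob-Rosi. That of 8 adipocyte genes was 14.6 and 70.7, 51.9 and 42.2, and 9.30 and 10.9 CPM, with Adipoq at most 0.703 and Car3 at 1.12 and 7.69, 47.9 and 36.5, and 0.326 and 1.5. The adipocyte sum thus overlapped between WT-Veh and ob/ob-Veh, while Car3 did not. Red cell RNA (5 genes) was 85.0 and 11.9, 224.5 and 135, and 145.5 and 13.3 CPM. A list of 10 dissociation response genes summed to 6762 and 8684, 10440 and 10200, and 7733 and 5210 CPM. The last was highest under ob/ob-Veh, and red cell RNA was lower under WT-Veh than under ob/ob-Veh and overlapped between ob/ob-Veh and ob/ob-Rosi. The part of these lists in the Trf, Cp, Slc11a1 and Ftl1 values was not tested.

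The ob/ob comparison asked how the genotype changed iron genes in the other eWAT classes. Of 76 pairs of a member and a class tested between ob/ob-Veh and WT-Veh, 7 were called, all lower, against 3.2% of all gene and class pairs (1.75% lower), and 33 had an unadjusted p under 0.05, against 19.6% of all pairs. The count was 19 with the replicate number as a block and 3 to 21 in fits without 1 library. The called members were the ferritin chains and Slc11a1. Ftl1 fell in EC-like cells from 5879 and 4553 CPM under WT-Veh to 1188 and 1346 under ob/ob-Veh (log2 −2.15, SE 0.263, adjusted p = 0.00102, edgeR), and was 4009 and 5118 under ob/ob-Rosi. It also fell in NKT-like cells (5549 and 4366 to 1355 and 1552 CPM, adjusted p = 0.0117), mesothelial-like cells (6086 and 3183 to 1256 and 1402, adjusted p = 0.0105) and cluster 16 (5571 and 5762 to 1074 and 1540, adjusted p = 0.000828). In these 3 classes and the cluster the WT-Veh and ob/ob-Veh libraries did not overlap. The EC-like and cluster 16 calls were kept in all 6 fits without 1 library, the NKT-like call in 2 and the mesothelial-like call in 3. The latter was lost without either library labelled ob/ob-Veh or without WT-Veh replicate 1 (adjusted p 0.0515 to 0.0656), and the NKT-like call without any 1 of the 4 libraries compared. The cluster 16 values rest on 20 to 39 cells per library, with 8 adipocyte genes at 9161 and 4271 CPM under WT-Veh and 6671 and 10500 under ob/ob-Veh and 8 macrophage genes at 4881 and 11530, then 2210 and 1108, and this call was lost when cells were thinned to 700 UMIs (adjusted p = 0.0824). The estimate for Ftl1 was negative in 10 of 10 classes tested, with a median of −1.60, while the median of all genes of a class lay between −0.124 and 0.047. These classes come from the same libraries, so their signs are not independent of each other.

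Fth1 fell in EC-like cells, from 5486 and 5525 CPM under WT-Veh to 2681 and 2776 under ob/ob-Veh (log2 −1.11, adjusted p = 0.0218, edgeR). The call was lost when likely doublets were removed (log2 −0.95, adjusted p = 0.0895) and without any 1 of the 4 libraries compared (adjusted p 0.0782 to 0.146). Its estimate was negative in 10 of 10 classes. In progenitor-like cells different clusters held the groups: nearly all of those labelled WT-Veh or ob/ob-Rosi lay in clusters 3 and 5, and of those labelled ob/ob-Veh in 10 and 11, beside 44 cells of replicate 2 in cluster 5. Cluster 5 was named progenitor-like although its progenitor markers were lower than in the other APC-like cells (mean log2 −0.555, 5 of 10 detected), so the calls of members in this class are also given without it, an alternative chosen after seeing the data that leaves 63 to 210 cells in the libraries labelled WT-Veh or ob/ob-Rosi. Slc11a1 fell in progenitor-like cells, from 12.5 and 19.7 to 2.98 and 4.05 CPM (log2 −2.29, SE 0.400, adjusted p = 0.00424), a call lost without cluster 5 (log2 −1.99, adjusted p = 0.0743) and without the eWAT library labelled WT-Veh replicate 2 (log2 −1.90, adjusted p = 0.275). It fell in NKT-like cells, from 70.6 and 40.1 to 26.2 and 17.4 CPM (log2 −1.45, adjusted p = 0.0423), a call lost without any 1 of the 4 libraries compared, when cells were thinned, when doublets or cells with a shared barcode were removed, with DESeq2 and with library size alone. For Slc11a1 the estimate was negative in 9 of 9 classes. The other 7 members had no call: Tfrc was positive in 6 of 6 classes and Ncoa4 in 8 of 9, while Trf was positive in 5 of 10.

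**Figure D3:**
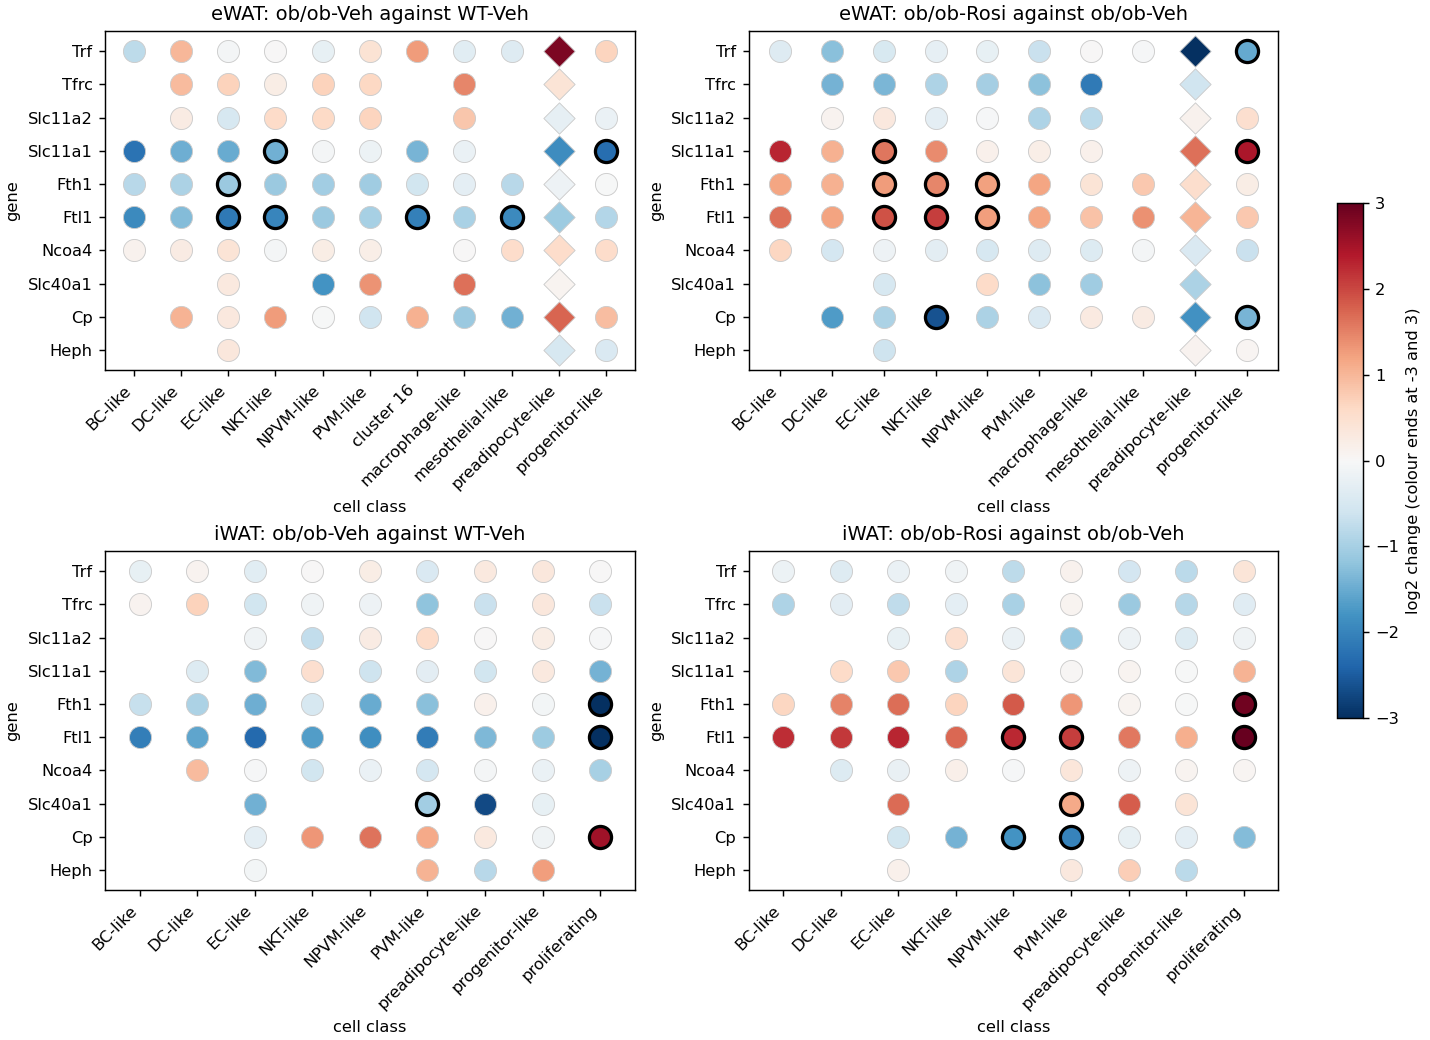
Log2 change of each member (rows) in each cell class (columns) for ob/ob-Veh against WT-Veh and ob/ob-Rosi against ob/ob-Veh in both depots, on a colour scale from −3 to 3. A thick black outline marks a called change, a diamond marks eWAT preadipocyte-like cells, which have no test, and empty cells were not tested. The Ftl1 row is negative in all tested classes of the first contrast and positive in all of the second.

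The rosiglitazone comparison asked which of these genes moved with 3 days of treatment in ob/ob mice. In eWAT, 11 of 71 pairs were called between ob/ob-Rosi and ob/ob-Veh, 8 higher and 3 lower, against 2.83% of all pairs (1.61% higher, 1.22% lower), with 35 at an unadjusted p under 0.05, against 17.6% of all pairs. The count was 22 with the block and 4 to 25 without 1 library. These comparisons share the ob/ob-Veh libraries with those above. Ftl1 rose in EC-like cells (log2 1.91, adjusted p = 0.00203), NKT-like cells (from 1355 and 1552 to 5310 and 6016 CPM, adjusted p = 0.0102) and NPVM-like cells (from 3887 and 4350 to 7653 and 11170 CPM, adjusted p = 0.0296). Fth1 rose in the same 3 classes: EC-like (to 5761 and 6990 CPM, adjusted p = 0.0106), NKT-like (from 2577 and 2579 to 6516 and 6677, adjusted p = 0.0466) and NPVM-like (from 3804 and 4490 to 7983 and 10390, adjusted p = 0.0312). The groups did not overlap in these 6 pairs. The EC-like call of Ftl1 was kept in all 6 fits without 1 library. The others were lost without either ob/ob-Veh library, and the NPVM-like calls, which held in 2 (Ftl1) and 1 (Fth1) of 6 fits, also without ob/ob-Rosi replicate 2. The NKT-like call of Fth1 held in 2 of 6 fits and was lost when cells were thinned and when doublets or cells with a shared barcode were removed.

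Slc11a1 rose in progenitor-like cells to 18.2 and 19.1 CPM (log2 2.45, SE 0.407, adjusted p = 0.0028, edgeR), a call kept in all 6 fits without 1 library and without cluster 5 (log2 2.37, adjusted p = 0.0424). In EC-like cells it rose from 21.6 and 12.0 to 55.4 and 39.4 CPM (adjusted p = 0.0396), a call lost without ob/ob-Veh replicate 2 (adjusted p = 0.317), when cells were thinned (adjusted p = 0.243) and when doublets were removed (adjusted p = 0.297). Cp fell in progenitor-like cells, from 302.5 and 297.5 to 151 and 69.7 CPM (log2 −1.40, adjusted p = 0.0302), the WT-Veh values being 153 and 160. It fell in NKT-like cells, from 80.2 and 60.6 to 19.7 and 7.83 CPM (log2 −2.62, adjusted p = 0.012), beside 39.9 and 16.4 under WT-Veh. The ob/ob-Rosi values rest on 6 and 14 UMIs. Over all kept eWAT cells Cp was 68.2 and 91.1, 292 and 312, and 79.4 and 42.4 CPM in the order of labels used above. Preadipocyte-like cells held 51.0 and 64.8% of the Cp UMIs under ob/ob-Veh. The part of RNA from other cells in the NKT-like values was not tested. Both Cp calls were lost when cells were thinned and without ob/ob-Rosi replicate 2 or ob/ob-Veh replicate 1. The progenitor-like call was also lost with finer clusters (log2 −0.77) and the NKT-like call with doublets removed. Without cluster 5 the progenitor-like difference in Cp was −2.34 (adjusted p = 0.000355). Trf fell in progenitor-like cells, from 153 and 197.5 to 65.4 and 51.9 CPM (log2 −1.53, SE 0.308, adjusted p = 0.0104), with 128 and 90.4 under WT-Veh. This Trf test used the libraries in which Trf was chosen and is not independent of that choice. It was lost when cells were thinned (log2 −1.07, adjusted p = 0.107), with finer clusters (−0.45, adjusted p = 0.527) and without the library labelled ob/ob-Rosi replicate 2 (−1.39, adjusted p = 0.0801), and was −2.30 (adjusted p = 0.000543) without cluster 5. Tfrc was negative in 6 of 6 classes with no call.

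Trf in eWAT PVM-like cells had estimates of 0.42 (adjusted p = 0.318) and −0.67 (adjusted p = 0.159), and in DC-like cells of 0.99 (adjusted p = 0.17) and −1.26 (adjusted p = 0.0868), and none was called by edgeR. DC-like values were 218 and 218 CPM under WT-Veh, 395 and 627 under ob/ob-Veh, and 191 and 199 under ob/ob-Rosi. The ob/ob-Veh libraries lay highest in both classes. When ob/ob-Rosi was set against WT-Veh, edgeR called 0 of 89 pairs in eWAT, against 0.0543% of all pairs, with 9 at an unadjusted p under 0.05, against 3.09% of all pairs, and 0 called by DESeq2.

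The ferritin and Slc11a1 differences of eWAT moved with RNA of macrophages in classes that are not macrophages (plot of Ftl1 against macrophage RNA). The summed level of 8 macrophage genes in EC-like cells was 7634 and 6127 CPM under WT-Veh, 3878 and 2236 under ob/ob-Veh, and 8515 and 7643 under ob/ob-Rosi. In NKT-like cells it was 11570 and 9107, 6445 and 6679, and 14580 and 12970 CPM, and in progenitor-like cells 2426 and 2039, 385 and 845, and 2325 and 2370. In mesothelial-like cells it was 5191 and 2942, 1156 and 1048, and 3239 and 3387 CPM. In each of these 4 classes both ob/ob-Veh libraries were the lowest. In iWAT APC the list moved less with the label. It was 895 and 732, 1077 and 1152, and 1158 and 1109 CPM in progenitor-like cells and 1223 and 1351, 1146 and 1113, and 1410 and 1283 in preadipocyte-like cells, lowest under ob/ob-Veh in the latter and not in the former. In iWAT EC-like cells the list summed to 4041 and 4069, 2503 and 1895, and 3134 and 7393 CPM, lowest under ob/ob-Veh as in eWAT. In iWAT NKT-like cells, at 3978 and 6018, 6184 and 4295, and 4962 and 7877 CPM, it was not. Ftl1 in iWAT progenitor-like cells was 1599 and 3474, 1205 and 1390, and 2127 and 2793 CPM, and in preadipocyte-like cells 1587 and 3287, 863 and 1035, and 2639 and 3006. In iWAT EC-like cells Ftl1 was 2296 and 2850, 567 and 673, and 1808 and 3245 CPM. In iWAT NKT-like cells it was 1876 and 2562, 1051 and 841, and 1920 and 2605 CPM. Both ob/ob-Veh libraries were the lowest for Ftl1 in these iWAT classes. In eWAT EC-like cells adipocyte RNA was 52.1 and 56.3, 1180 and 1004, and 28.3 and 25.1 CPM, and red cell RNA 123 and 293, 1040 and 2813, and 1772 and 548. Adipocyte RNA was thus highest under ob/ob-Veh, and red cell RNA lowest under WT-Veh. Macrophage-like cells of eWAT numbered 3646 and 1259 under WT-Veh, 46 and 58 under ob/ob-Veh, and 2027 and 2390 under ob/ob-Rosi. They gave 27.1 and 34.5, 0.815 and 2.84, and 20.1 and 31.6% of the Ftl1 UMIs of their libraries. The part of these lists and cell numbers in the calls was not tested.

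**Figure D4:**
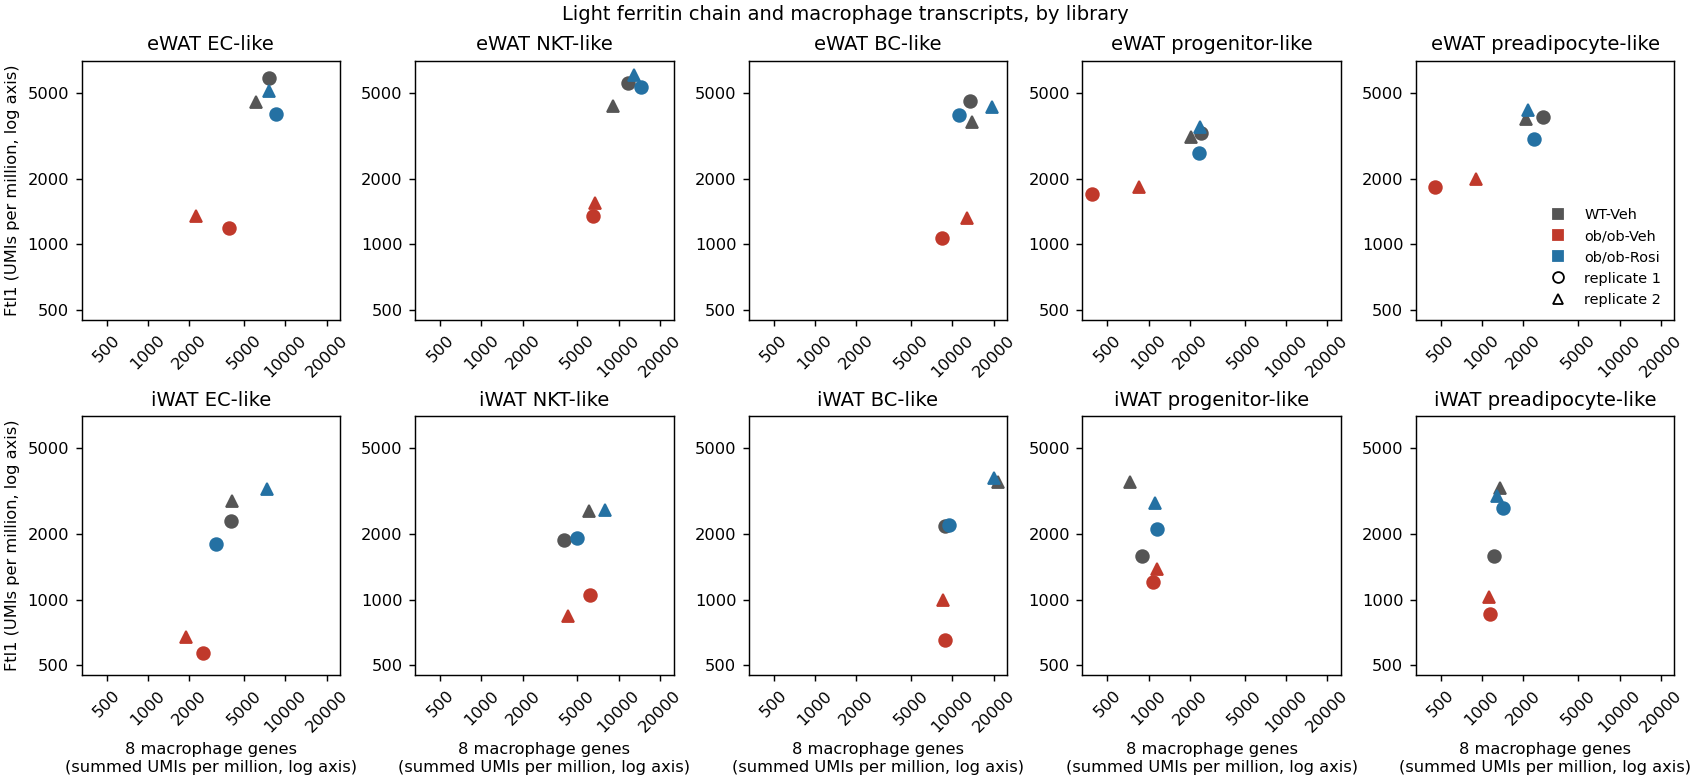
Ftl1 level against the summed level of 8 macrophage genes, both in CPM on log axes, for EC-like, NKT-like, BC-like, progenitor-like and preadipocyte-like cells of each depot. Each point is a library, with colour for the label. In eWAT EC-like and progenitor-like cells the ob/ob-Veh points are lowest on both axes. In iWAT progenitor-like cells they lie at 1205 and 1390 for Ftl1 and at 1077 and 1152 for macrophage RNA.

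In iWAT, 4 of 74 pairs were called between ob/ob-Veh and WT-Veh, 1 higher and 3 lower, against 4.32% of all pairs (2% higher, 2.32% lower), with 22 at an unadjusted p under 0.05, against 21.6% of all pairs. The called share was close to the background, and 3 of the 4 calls were in proliferating cells, where 21.8% of all genes were called. The count was 11 with the block and 2 to 16 without 1 library. In proliferating cells Fth1 fell from 7816 and 10530 CPM to 1190 and 1180 (log2 −3.41, adjusted p = 0.000777) and Ftl1 from 10650 and 14020 to 1085 and 1398 (log2 −3.78, adjusted p = 0.000651, edgeR). Both calls were kept in all 6 fits without 1 library. Cp rose there from 4.15 and 5.93 to 49.0 and 34.4 CPM (adjusted p = 0.0228), a call lost in each of these 6 fits. The ob/ob-Veh values rest on 44 and 21 proliferating cells, and with cells of shared barcodes removed 1 library fell under 20 cells and the class was not tested. Other RNA moved too: APC markers summed to 957 and 2243 CPM under WT-Veh, 9021 and 3941 under ob/ob-Veh and 2803 and 4906 under ob/ob-Rosi, and 8 macrophage genes to 7174 and 16160, 9756 and 12720, and 18600 and 25350. Their part in the result was not tested. Slc40a1 fell in PVM-like cells, from 33.9 and 31.5 to 19.5 and 17.5 CPM (log2 −1.03, SE 0.254, adjusted p = 0.0474). This call was kept in 1 of 6 fits without 1 library and was lost when cells were thinned, when doublets or cells with a shared barcode were removed, with library size alone and with finer clusters.

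Under rosiglitazone in iWAT, 7 of 74 pairs were called, 5 higher and 2 lower, against 6.46% of all pairs (3.84% higher, 2.62% lower), with 24 at an unadjusted p under 0.05, against 24.9% of all pairs. The count was 15 with the block and 2 to 21 without 1 library. All 7 were in PVM-like, NPVM-like and proliferating cells, where 11.6, 16.6 and 15.2% of all genes were called. Ftl1 rose in PVM-like cells, from 2495 and 2748 to 6963 and 11880 CPM (log2 2.07, adjusted p = 0.0492), and in NPVM-like cells, from 1810 and 1416 to 5462 and 6406 (log2 2.26, adjusted p = 0.0339, edgeR). In proliferating cells Ftl1 rose to 7345 and 9353 CPM (log2 3.21, adjusted p = 0.00134) and Fth1 to 5870 and 7241 (log2 2.92, adjusted p = 0.00158). Slc40a1 rose in PVM-like cells to 39.9 and 30.7 CPM (log2 1.14, SE 0.252, adjusted p = 0.0279). Cp fell in PVM-like cells, from 470 and 368 to 115.5 and 67.4 CPM (log2 −1.99, SE 0.325, adjusted p = 0.0143), with 161 and 169 under WT-Veh. It fell in NPVM-like cells, from 44.4 and 18.0 to 7.78 and 6.48 CPM (log2 −1.80, adjusted p = 0.0264), where the WT-Veh values were 13.9 and 6.24. Groups did not overlap in these 7 pairs. Only the proliferating-cell calls were kept in all 6 fits without 1 library. The PVM-like call of Ftl1 was kept in 3 and also lost when doublets or cells with a shared barcode were removed, with library size alone and with finer clusters, its NPVM-like call in 2, the Slc40a1 call in 2 (adjusted p 0.103 to 0.205 without any 1 of the 4 libraries compared), and the Cp calls in 3 (PVM-like) and 2 (NPVM-like). Cp in PVM-like cells was lost without ob/ob-Rosi replicate 2 or either ob/ob-Veh library (adjusted p 0.0841 to 0.183). Cp in NPVM-like cells was also lost with DESeq2, when cells were thinned and with finer clusters (log2 −1.11, adjusted p = 0.184), and without ob/ob-Veh replicate 1 it was −0.82 (adjusted p = 0.459). PVM-like cells came from several clusters. The 2813 and 2171 cells of the ob/ob-Veh libraries were together close in number to 1 of them, of 4983 cells. The groups may thus compare different clusters, which was not tested. APC markers summed to 962 and 970, 6923 and 6257, and 2146 and 2258 CPM in the PVM-like cells and to 1198 and 1244, 6595 and 6240, and 2356 and 2023 in the NPVM-like cells, highest under ob/ob-Veh as Cp was. Their part in the result was not tested.

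Across iWAT classes Ftl1 was negative in 9 of 9 for the ob/ob contrast (median −1.87) and positive in 9 of 9 for rosiglitazone (median 2.13). In eWAT the latter count was 9 of 9 too (median 1.26). Scaling by library size alone moved the median of all genes by −0.657 to 0.521 within the fits of a depot, both in iWAT DC-like cells. Fth1 was positive under rosiglitazone in 9 of 9 eWAT and 8 of 9 iWAT classes. The classes of a depot share libraries, so these signs are not independent of each other. When ob/ob-Rosi was set against WT-Veh in iWAT, edgeR called 0 of 88 pairs, against 0.012% of all pairs, with 7 at an unadjusted p under 0.05, against 4.35% of all pairs, and 0 called by DESeq2.

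The depots were compared with all 12 libraries in 1 fit per class. Trf in preadipocyte-like cells, 3.20-fold lower in iWAT, is left out of the count because the eWAT values there chose it. Of the other 69 pairs, 12 were called between iWAT and eWAT, 1 higher and 11 lower in iWAT, against 5.77% of all pairs (2.7% higher, 3.07% lower). The count was 6 with the block and 5 to 23 without 1 library. In progenitor-like cells, where 17.1% of all genes were called, 4 members were lower in iWAT, the oxidases by most. The classes of the depots are named alike but need not be the same cells: iWAT cluster 6, led like eWAT cluster 5 by Cilp, Fmo2, Cpxm2 and Fxyd6, was named preadipocyte-like. Heph, in the order of labels used above, was 9.38 and 22.3, 12.7 and 12.3, and 15.5 and 9.57 CPM in eWAT. The iWAT values were 1.47 and 1.28, 3.24 and 3.71, and 2.41 and 1.34, with no overlap (log2 −2.68, SE 0.278, adjusted p = 9.02e-06, edgeR). These iWAT values rest on 1 and 13, 49 and 32, and 13 and 18 UMIs. Cp was 69.7 to 302.5 CPM in eWAT and 28.3 to 77.9 in iWAT progenitor-like cells, ranges that overlapped narrowly (log2 −1.72, SE 0.221, adjusted p = 6.32e-05, edgeR). Both calls were kept in all 12 fits without 1 library. Without eWAT cluster 5 the Heph difference was −1.95 (adjusted p = 0.00702), with eWAT values of 0 to 12.7 CPM that overlapped those of iWAT, and the Cp difference −1.07 (adjusted p = 0.00229). Slc11a1 (log2 −1.40, adjusted p = 0.000582) and Slc40a1 (log2 −1.57, adjusted p = 0.035) were lower in iWAT progenitor-like cells as well, Slc40a1 at 0.689 to 5.88 CPM against 3.13 to 5.90, with the highest iWAT value in the library that stood apart. The Slc40a1 call was kept in 3 of 12 fits without 1 library and was lost with DESeq2, with the replicate number as a block and without cluster 5 (adjusted p = 0.0605). That of Slc11a1 was kept in all 12 and without cluster 5 (adjusted p = 0.00486), but not when cells were thinned or with the block.

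Ferritin was lower in iWAT in several classes. In DC-like cells Fth1 (2790 to 5662 CPM in eWAT and 1321 to 2788 in iWAT) differed by log2 −1.25 (adjusted p = 0.0124) and Ftl1 by −1.19 (adjusted p = 0.0178). Ftl1 differed by −1.13 in NKT-like (adjusted p = 0.0302), −1.04 in NPVM-like (adjusted p = 0.0493) and −0.66 in preadipocyte-like cells (adjusted p = 0.0402), and Slc11a1 by −1.22 in NKT-like cells (adjusted p = 0.0477, edgeR). Tfrc was higher in iWAT preadipocyte-like cells (log2 1.28, adjusted p = 0.0298), at 31.7 and 8.42, 10.8 and 12.0, and 6.43 and 4.10 CPM against at most 7.33 in eWAT. Its highest value came from the iWAT library that stood apart, with 259 such cells, and without that library the difference was 0.90 (adjusted p = 0.0564). Of the calls in these classes, Fth1 in DC-like cells was kept in 10 of 12 fits without 1 library, Ftl1 there in 6, Tfrc in 4 and the other 4 in 3 each. When cells were thinned only Ftl1 in preadipocyte-like cells remained called among them, and that call was lost with the replicate block. Ftl1 in NPVM-like cells was also lost with the block and when doublets or cells with a shared barcode were removed, and Slc11a1 in NKT-like cells under these 3 settings and with library size alone. Both DC-like calls were also lost with finer clusters.

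A group difference in 1 depot was compared with the same difference in the other by an interaction term. For ob/ob-Veh against WT-Veh 2 of 60 pairs were called (background 0.51%), and for ob/ob-Rosi against ob/ob-Veh 1 of 60 (background 0.329%). Slc40a1 in PVM-like cells was 28.7 and 61.7 CPM under WT-Veh, 151 and 93.1 under ob/ob-Veh, and 44.5 and 52.0 under ob/ob-Rosi in eWAT, so that both ob/ob-Veh libraries lay highest there, while in iWAT they lay lowest (plot of members in PVM-like cells). The difference between depots in the log2 change with the ob/ob label was −2.38 (SE 0.486, adjusted p = 0.0442, edgeR), with eWAT at 1.34 (adjusted p = 0.0684) and iWAT at −1.03. For the rosiglitazone contrast it was 2.38 (adjusted p = 0.179) and was not called. PVM-like cells were drawn from clusters of 4856 and 3719 cells in eWAT and of 5898, 5206 and 4983 in iWAT. The ob/ob-Veh libraries held 1891 and 1850 such cells in eWAT and 2813 and 2171 in iWAT. In each depot the cells of both ob/ob-Veh libraries together were close in number to 1 of these clusters, of 3719 cells in eWAT and 4983 in iWAT. The median depth of that iWAT cluster was 1610 UMIs, beside 1629 and 1599 in the iWAT ob/ob-Veh PVM-like cells. The ob/ob-Veh label may thus have been held by its own cluster, as in APC, which was not tested. In these eWAT PVM-like cells red cell RNA was 96.9 and 7.46, 140 and 219, and 125 and 31.7 CPM, highest under ob/ob-Veh as well, and its part in the result was not tested. Averaged over groups, Slc40a1 in PVM-like cells was lower in iWAT (log2 −1.25, SE 0.199, adjusted p = 0.0087), a call kept in all 12 fits without 1 library and lost with the replicate block (adjusted p = 0.107).

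**Figure D5:**
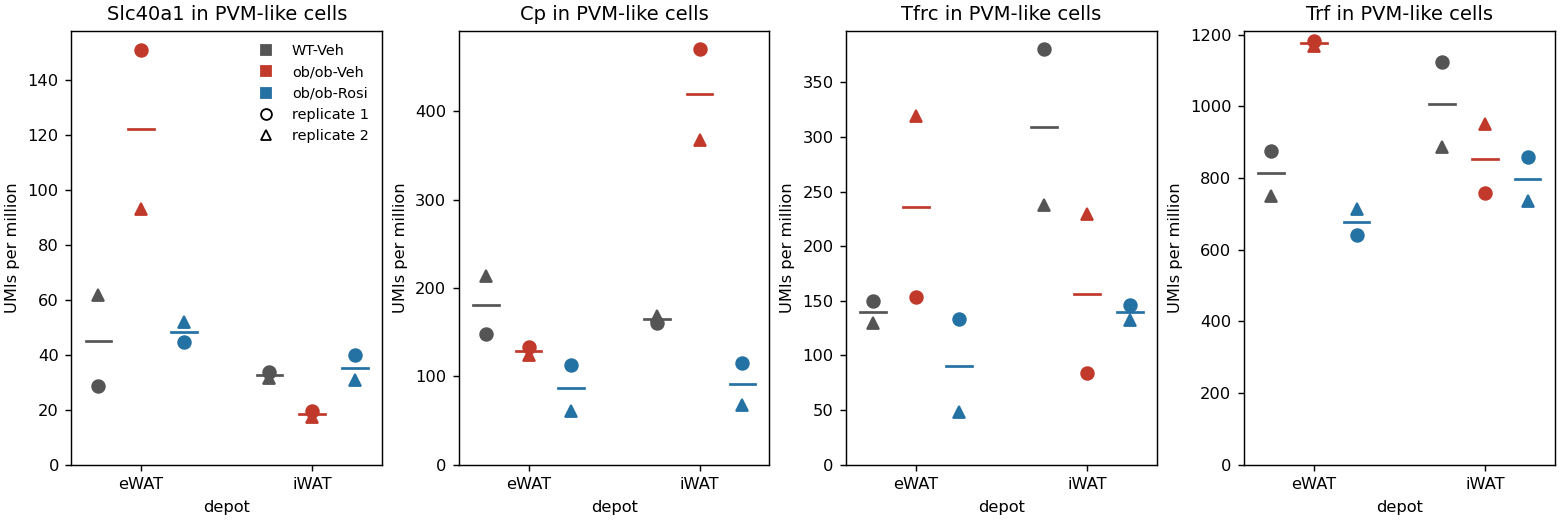
Levels in CPM of Slc40a1, Cp, Tfrc and Trf in PVM-like cells by depot and label. Points are libraries and lines their means (n = 2). Slc40a1 is highest under ob/ob-Veh in eWAT (151 and 93.1) and lowest under ob/ob-Veh in iWAT (19.5 and 17.5).

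Slc11a1 in progenitor-like cells differed between depots in both contrasts. In iWAT it was 2.94 and 3.05 CPM under WT-Veh, 4.16 and 3.94 under ob/ob-Veh, and 4.63 and 2.90 under ob/ob-Rosi, without the eWAT dip to 2.98 and 4.05. These iWAT values rest on 2 and 31, 63 and 34, and 25 and 39 UMIs. The iWAT groups, too, were held by different clusters, ob/ob-Veh by iWAT clusters 3 and 8 and the other labels mostly by 1, 2 and 4. The differences between depots in log2 change were 2.54 (SE 0.572, adjusted p = 0.0482) for ob/ob-Veh against WT-Veh and −2.45 (SE 0.534, adjusted p = 0.0462, edgeR) for ob/ob-Rosi against ob/ob-Veh, which share the ob/ob-Veh libraries. These 3 interaction calls were kept in 1, 2 and 3 of 12 fits without 1 library, in the order given, and both Slc11a1 calls were lost without eWAT cluster 5, at differences of 2.20 (adjusted p = 0.231) and −2.32 (adjusted p = 0.165) that stayed near those with it. All 3 were lost when cells were thinned and with finer clusters, both calls of the ob/ob contrast with library size alone, and both Slc11a1 calls with doublets removed. That of Slc11a1 for ob/ob was also lost with the block and with cells of shared barcodes removed. Macrophage RNA, given above, was lowest under ob/ob-Veh in eWAT progenitor-like cells and not in iWAT, and its part in the result was not tested.

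The genes most like 4 members were found by Pearson's r of log2(CPM + 1) over 156 pairs of a library and a class among 9113 genes, as a description, since pairs share libraries. Trf was most like Asah1 (0.663), a lysosomal ceramidase, Grn (0.645), progranulin, and Cd14 (0.643), a co-receptor for bacterial lipopolysaccharide. Cp was most like Zcchc24 (0.741), Nfia (0.734), a transcription factor, and Ecm2 (0.733), an extracellular matrix protein. Slc40a1 was most like Selenop (0.605), a selenium carrier, Rab7 (0.551), a late endosome GTPase, and Igf1 (0.545). Slc11a1 was most like Cd300a (0.9), Adgre1 (0.887) and Cd68 (0.887), and the last 2 are macrophage markers used to name classes.

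The other 70 iron genes compared were grouped by function, and counts are called pairs of a gene and a class outside eWAT preadipocyte-like cells. They are to be read against the share of all pairs called, which was 3.2% and 2.83% in eWAT and 4.32% and 6.46% in iWAT for the ob/ob and rosiglitazone contrasts. Heme handling had the most called pairs, and the most pairs tested, for rosiglitazone in both depots. Of its pairs, 2 were higher and 11 lower of 143 for ob/ob-Veh against WT-Veh in eWAT, and 8 higher and 1 lower of 137 for ob/ob-Rosi against ob/ob-Veh. In iWAT the counts were 0 and 9 of 128, then 11 and 1 of 128. These are 9.09 and 6.57% of its pairs in eWAT and 7.03 and 9.38% in iWAT. Blvrb and Blvra, which encode enzymes named biliverdin reductases, were among them, and Blvrb alone made up 5 of the 11 lower and 5 of the 8 higher pairs in eWAT. Blvrb in eWAT EC-like cells fell from 150 and 156 to 48.0 and 62.5 CPM (log2 −1.56, adjusted p = 0.00525) and rose to 184 and 185 with rosiglitazone (log2 1.79, adjusted p = 0.00208, edgeR), beside the macrophage RNA given above for that class, which moved the same way. Blvra in eWAT NKT-like cells was 61.4 and 59.3, 17.5 and 29.9, and 72.3 and 60.4 CPM, with both contrasts called (log2 −1.57, adjusted p = 0.0138, and 1.60, adjusted p = 0.0161, edgeR). Macrophage RNA in these NKT-like cells, given above, moved the same way, and its part was not tested. In iWAT NPVM-like cells Blvra was 75.3 and 82.55, 40.9 and 34.8, and 71.7 and 70.3 CPM, again with both called (log2 −1.39, adjusted p = 0.0371, and 1.27, adjusted p = 0.0238, edgeR). Both ob/ob-Veh libraries were the lowest in these classes. In iWAT PVM-like cells Blvrb was 210 and 520 CPM under WT-Veh, 118 and 125 under ob/ob-Veh and 366 and 521 under ob/ob-Rosi (log2 −1.82, adjusted p = 0.0464, and 2.10, adjusted p = 0.0255).

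Hp, haptoglobin, which binds free haemoglobin, did not move in 1 direction over eWAT classes. In EC-like cells it was 17.4 and 17.8 CPM under WT-Veh, 68.2 and 54.75 under ob/ob-Veh, and 25.9 and 38.2 under ob/ob-Rosi, with the ob/ob contrast called (log2 1.70, adjusted p = 0.0133, edgeR). Adipocyte RNA in these EC-like cells, given above, was also highest under ob/ob-Veh, and its part was not tested. In progenitor-like cells Hp rose from 53.2 and 43.3 to 325 and 304.5 CPM (log2 2.72, adjusted p = 0.00127) and fell to 69.1 and 23.2 with rosiglitazone (adjusted p = 0.00134, edgeR). In NPVM-like cells it was 135 and 122 CPM under WT-Veh, 19.3 and 14.3 under ob/ob-Veh, and 47.2 and 138 under ob/ob-Rosi, with both contrasts called. The progenitor-like values compare different clusters, as given above. Whether the classes differed from each other was not tested. In iWAT Hp rose with rosiglitazone in 4 classes, among them preadipocyte-like cells, at 13.6 and 3.53 CPM under WT-Veh, 0.943 and 1.27 under ob/ob-Veh, and 29.8 and 18.3 under ob/ob-Rosi (log2 4.41, adjusted p = 0.0304, edgeR). These iWAT values too compare mostly different clusters, as given above.

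Iron uptake and transport genes gave 4 higher and 2 lower of 89 in eWAT and 9 higher and 0 lower of 85 in iWAT for ob/ob-Veh against WT-Veh. With rosiglitazone they gave 0 and 3 of 85, and 0 and 5 of 85. Their shares were 6.74 and 3.53% in eWAT and 10.6 and 5.88% in iWAT. Of the 9 higher pairs in iWAT, 6 were Scara5 in 6 classes that are not APC, and 3 genes made up all 9. Scara5, a receptor for ferritin that APC express, rose in iWAT PVM-like cells from 1.87 and 5.42 to 89.0 and 75.0 CPM (log2 4.07, adjusted p = 0.00219) and fell to 9.72 and 13.7 with rosiglitazone (adjusted p = 0.0134, edgeR), beside the APC marker values given above for that class. Slc25a37, the mitochondrial iron importer, was 43.5 and 40.8, 130 and 108, and 62.5 and 38.8 CPM in eWAT PVM-like cells, higher under ob/ob-Veh than WT-Veh by log2 1.40 (adjusted p = 0.0222, edgeR). In iWAT PVM-like cells it was 70.9 and 51.0, 152 and 118.5, and 52.3 and 40.7 CPM, lower with rosiglitazone by log2 −1.34 (adjusted p = 0.0245). Among iron sensing and hepcidin genes, with 3 higher and 0 lower of 74 in eWAT, Bmp2, an inducer of hepcidin, rose in progenitor-like cells from 3.13 and 5.90 to 40.0 and 36.6 CPM (log2 2.95) and fell to 14.5 and 2.73 with rosiglitazone, again between different clusters. Spic, a transcription factor of iron-recycling macrophages, rose in eWAT PVM-like cells from 2.75 and 5.8 to 16.9 and 18.0 CPM (log2 1.92, adjusted p = 0.0229, edgeR), beside 6.10 and 8.81 under ob/ob-Rosi. It went the other way in eWAT NPVM-like cells, at 7.11 and 2.20, 0.411 and 1.07, and 5.64 and 4.51 CPM, where it was called higher with rosiglitazone.

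The remaining lists had few calls, at shares of 0 to 5.88% but for the storage list (5.13 and 2.86% in eWAT, 12.1 and 9.09% in iWAT), most of them near or under the share of all pairs. Sensing and hepcidin genes gave 1 and 2 of 70 with rosiglitazone in eWAT, and 1 and 1 and then 3 and 1 of 68 in iWAT. Storage and chaperone genes gave 0 and 2 of 39 and 1 and 0 of 35 in eWAT, and 2 and 2 and then 1 and 2 of 33 in iWAT, where Prnp, the prion protein, rose in DC-like cells from 19.5 and 9.88 to 114.5 and 120 CPM and fell to 10.4 and 8.90. The ob/ob-Veh values rest on 49 and 42 DC-like cells. APC markers there summed to 1042 and 867, 11340 and 7623, and 1522 and 1901 CPM, and their part in the Prnp values was not tested. Iron-sulphur cluster genes gave 0 and 1 of 66 and 0 and 0 of 64 in eWAT, and 0 and 3 and then 3 and 0 of 58 in iWAT. Genes that link iron to lipid peroxidation gave 0 and 2 of 59 and 1 and 1 of 58 in eWAT, and 0 and 1 and then 2 and 0 of 52 in iWAT. In these counts higher comes first and lower second, and the ob/ob contrast comes before the rosiglitazone contrast.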

How the data were processed

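The authors processed 10x Chromium 3' v3.1 libraries of mouse SVF with bcl2fastq 2.19.1.403 and Cell Ranger 3.0.2 on mm10 and deposited raw UMI counts per gene and cell barcode. The iWAT files had already been limited by UMIs and mitochondrial share. Cells with 700 to 22000 UMIs, 200 to 6000 genes and under 25% mitochondrial UMIs were kept. Each depot was clustered (scanpy 1.11.5, 2000 variable genes, 25 components, 20 neighbours, Leiden resolution 1), and APC-like cells again (15 components, resolution 0.6). Classes were named from marker lists; the naming rule was adjusted after clusters were seen and before groups were compared. Cluster 16 of eWAT is given by number, since adipocyte genes were among its leading genes. Doublets, free RNA and cells with a barcode of another library were kept; fits without the last, and without eWAT cluster 5, were added after seeing the data. The deposited counts were summed per library and class and tested with edgeR 4.0.16 (filterByExpr, TMM, quasi-likelihood, R 4.3.3), and with DESeq2 1.42.0 as an alternative. Residual degrees of freedom were 3 in a depot fit with all 6 libraries and 6 in the joint fit. Classes with fewer libraries, such as eWAT cluster 16 with 5, had fewer. The study compared cells by a Wilcoxon test, which takes cells of 1 mouse as independent. The tests were checked on simulated counts. Named genes were the members and, of the other iron genes, the 6 per depot with the most called pairs, ties going to the larger mean log2 change, and values are printed for some of their classes. The members and lists were chosen with earlier results of these data known. Shares of cells have counting error only.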

Additional observations from a re-analysis of the deposited data

Results flagged for a closer look

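Differences between depots in the response of 1 member were tested by an interaction term, with iWAT minus eWAT as the direction, and 3 passed. For Slc40a1 in PVM-like cells the log2 change from WT-Veh to ob/ob-Veh differed by −2.38 (SE 0.486, adjusted p = 0.0442, edgeR, n = 2 libraries per group and depot), with the ob/ob-Veh libraries highest in eWAT and lowest in iWAT. In each depot the PVM-like cells labelled ob/ob-Veh were close in number to 1 PVM-like cluster, so the groups may compare different clusters, which was not tested. For Slc11a1 in progenitor-like cells the same change differed by 2.54 (SE 0.572, adjusted p = 0.0482), being called in eWAT and not in iWAT. For Slc11a1 in progenitor-like cells the change from ob/ob-Veh to ob/ob-Rosi differed by −2.45 (SE 0.534, adjusted p = 0.0462). In both depots different progenitor-like clusters mostly held the groups, and the iWAT Slc11a1 counts there were 2 to 63 UMIs a library. Both Slc11a1 values share the ob/ob-Veh libraries. Both were lost without eWAT cluster 5, which is low in progenitor markers (differences of 2.20, adjusted p = 0.231, and −2.32, adjusted p = 0.165, of nearly the same size), and the first also with cells of shared barcodes removed (adjusted p = 0.0528). All 3 were lost when cells were thinned to 700 UMIs and with finer clusters.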

How the results depend on the processing

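No called member changed direction under any alternative run. Over 44 called pairs, a change stayed called in 40 of 43 with DESeq2, 38 of 44 with library size alone, 44 of 44 without the filter on low counts, 37 of 44 with the replicate block, 21 of 40 with cells thinned to 700 UMIs, 32 of 43 with doublets removed, 29 of 39 with Leiden resolution 2, 32 of 39 with cells of shared barcodes removed, 6 of the 10 progenitor-like calls without eWAT cluster 5 and 195 of 354 fits without 1 library. The count of called pairs for eWAT ob/ob-Veh against WT-Veh went from 7 to 17 with DESeq2, 24 without the filter, 19 with the block and 4 with doublets removed. For eWAT ob/ob-Rosi against ob/ob-Veh it went from 11 to 21, 25 and 22 in the first 3 of these settings. For iWAT ob/ob-Veh against WT-Veh it went from 4 to 16, 15 and 11, to 2 with thinned cells, to 1 with resolution 2 and to 0 with cells of shared barcodes removed. For iWAT ob/ob-Rosi against ob/ob-Veh it went from 7 to 16, 16 and 15, and to 4 with cells of shared barcodes removed. That removal left the iWAT proliferating class untested. For iWAT ob/ob-Rosi against WT-Veh it went from 0 to 2 without the filter. For iWAT against eWAT it went from 12 to 21 with DESeq2, 25 without the filter, 6 with the block and 4 with thinned cells. For the difference between depots it went from 2 to 3 (DESeq2), 0 (library size, thinned and resolution 2), 4 (no filter) and 1 (block, doublets removed, shared barcodes removed and without cluster 5) for ob/ob, and from 1 to 2 (DESeq2), 4 (no filter) and 0 (thinned, doublets removed, resolution 2 and without cluster 5) for rosiglitazone. Removing shared barcodes and leaving out cluster 5 were chosen after seeing the data.

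Without 1 library the counts ran from 3 (without eWAT ob/ob-Veh replicate 2) to 21 (without eWAT ob/ob-Rosi replicate 1) and from 4 (without eWAT ob/ob-Veh replicate 1) to 25 (without eWAT ob/ob-Rosi replicate 1) for the first 2 contrasts, 0 to 2 for eWAT ob/ob-Rosi against WT-Veh, 2 to 16, 2 to 21 and 0 to 5 for the 3 iWAT contrasts in the same order, 5 to 23 between depots, and 0 to 1 for both differences between depots. The log2 change of Trf in eWAT preadipocyte-like cells, for which Trf was chosen, ran from 2.58 to 3.1 and from −3.98 to −3.09. Where 1 library was left in a group, its spread was taken from the other groups.

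The labels do not say that a replicate number marks a shared mouse, batch or day. Deviations of same-numbered libraries correlated at 0.429, 0.214 and 0.282 in eWAT, all positive, and at −0.099, 0.628 and −0.211 in iWAT. With 2 libraries a group each of these rests on 1 difference per group, and the values of a depot reuse the same differences. Whether numbers share something thus cannot be told from them, and the counts with the block are given above. With the replicate block the calls lost were between depots for Ftl1 in NPVM-like and preadipocyte-like cells, Slc11a1 in NKT-like and progenitor-like cells and Slc40a1 in PVM-like and progenitor-like cells, and the ob/ob difference of Slc11a1 in progenitor-like cells. The cause of these changes was not tested. Depth limits the classes with few cells, such as the 10 and 21 LAM-like cells of eWAT ob/ob-Veh, for which no contrast with that group was tested.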
